A study of Rattus norvegicus with 4 samples.

Results

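The report describes 10 genes of muscle excitation-contraction coupling and calcium handling in rat middle ear mucosa: RYR1, CACNA1S, CACNG1, ATP2A1, SLN, CASQ1, CASQ2, TRDN, JPH1 and JPH2. The genes were taken by symbol from the deposited expression table, and all 10 were found among its 27832 features. Where a symbol had several features the one with the highest mean level was used, which concerned RYR1 alone. The table places RYR1, TRDN and ATP2A1 on chromosome 1, CACNA1S and CASQ1 on chromosome 13, CASQ2 on 2, JPH2 on 3, JPH1 on 5, SLN on 8 and CACNG1 on 10. Sprague-Dawley rats, whose ages are not given in the labels, were inoculated in the middle ear. They received medium only (vehicle control, called media) or, through the eardrum of the right ear, 50 µL of a suspension of methicillin-resistant Staphylococcus aureus (MRSA), of Pseudomonas aeruginosa (PA) or of both species together (MRSA + PA), and the scraped lining of the middle ear was sequenced 1 week later. Each condition is represented by 1 library, and how many rats gave RNA to a library is not given in the sources used here. Each condition was read from the title of its sample, and the label on the inoculum names the same condition in each sample. No difference could therefore be set against a spread between replicates, and all values below are descriptions of 4 libraries without a test.

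Skeletal muscle contracts when a voltage sensor in the surface membrane opens a calcium release channel in the sarcoplasmic reticulum, the internal calcium store of the fibre. The sensor and the channel face each other at junctions held together by junctophilins and triadin. Calsequestrin binds the stored calcium, and the SERCA pump returns calcium to the store so that the fibre relaxes. Fast and slow fibres, and heart and smooth muscle, use different members of the same protein families. The tensor tympani and stapedius are the skeletal muscles of the middle ear.

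All 10 genes were lower than media in each inoculated library, by unequal amounts. In MRSA all but JPH2 and CASQ2 stood at 28.6% to 57.4% of their media level. In PA and MRSA + PA, 7 of these 8 genes stood at 0.187% to 11.0% and at 0.0755% to 10.3% of media, and the eighth, SLN, was listed at 0 in both libraries. JPH2 stood at 95.4%, 94.6% and 85.7% of media in MRSA, PA and MRSA + PA, and CASQ2 at 58.9%, 67.3% and 46.4%. CASQ2 was thus close to SLN in MRSA, and above the 8 genes in PA and MRSA + PA. In bulk tissue, fewer muscle fibres in the scraped sample, for whatever reason, and less RNA per fibre cannot be told apart. How much muscle each scraped sample held is not given in the sources used here.

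**Figure D1:**
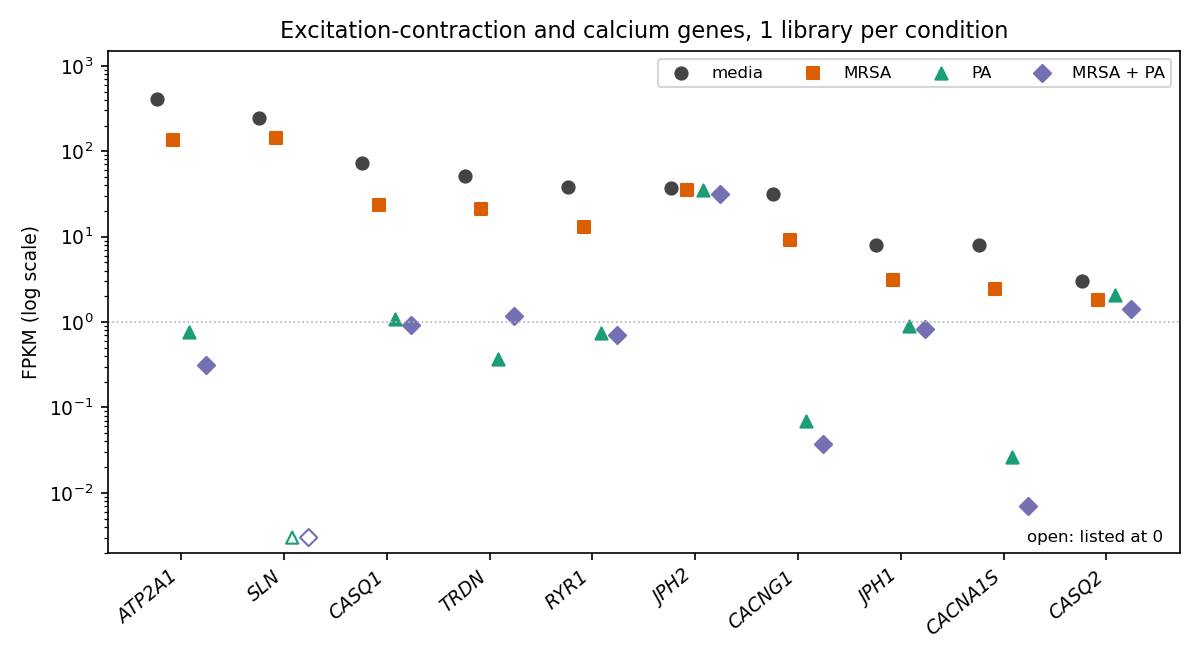
Level of each of the 10 genes (x axis, ordered by media level) in FPKM (y axis, log scale), 1 point per library, with a dotted line at 1 FPKM. ATP2A1 and SLN are highest in media and MRSA, PA and MRSA + PA lie near or under 1 FPKM for 8 genes, JPH2 lies between 31.7 and 37.0 FPKM in every library, and open symbols mark SLN, listed at 0.

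Levels are given as FPKM, fragments scaled to transcript length and library size, so that genes can be set side by side. FPKM was above 0 for 21504 to 21898 features per library, and the number of reads behind a value is unknown. Epithelial genes were present in every library, with EPCAM, an epithelial adhesion protein, at 222 to 266 FPKM and KRT8, a keratin of simple epithelium, at 76.1 to 111 FPKM. Others of the 6 epithelial genes varied more. BPIFA1, a secreted airway protein, had 25725, 11118, 7472 and 13362 FPKM and CDH1, E-cadherin, had 38.6, 57.3, 99.4 and 64.9 FPKM, in the order media, MRSA, PA, MRSA + PA. A skeletal muscle comparison list of 33 found sarcomere and muscle energy genes, called the sarcomere list, summed to 14017 FPKM in the media library, 5536 after MRSA, 625 after PA and 615 after MRSA + PA. TPM1 and TPM2, tropomyosins that non-muscle cells also make, held 94.3% of that sum in PA and 95.4% in MRSA + PA. T cell markers moved in the other direction, and the 5 genes of that list summed to 27.4 FPKM in media and to 140.1 to 144 FPKM in the inoculated libraries. The part of these shifts in the results below was not tested.

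The calcium pump of fast fibres and its small inhibitor were the most abundant of the 10 genes. ATP2A1, which encodes the pump SERCA1, had 412 FPKM in the media library, 136 after MRSA, 0.773 after PA and 0.311 after MRSA + PA. The media library was highest, MRSA kept 32.9% of its level, and the other inoculated libraries kept 0.187% and 0.0755%. The log2 difference from media, taken here and below as the log2 ratio after 0.1 FPKM was added to both libraries, was -1.60 after MRSA, -8.88 after PA and -9.97 after MRSA + PA. SLN, which encodes sarcolipin, a peptide that slows SERCA, had 247 FPKM in media and 142 in MRSA and was listed at 0 in PA and in MRSA + PA. No fold is given against those libraries. In MRSA SLN kept 57.4% of its media level, a share close to that of CASQ2 and below that of JPH2, and its log2 difference was -0.80. The ratio of SLN to ATP2A1 was 0.600 in media and 1.05 in MRSA, so SLN was the highest of the 10 genes in MRSA and ATP2A1 the highest in media. In rodents SLN is known mainly from slow muscle and the atria of the heart. A list of 9 slow fibre genes, CASQ2 among them, had a median of 49.4% of media in MRSA, and a list of 10 fast fibre genes, ATP2A1 and CASQ1 among them, a median of 34.1%. The lists overlapped, the slow from 29.5% (MYH7) to 93.4% (ATP2A2), the fast from 19.7% (MYH1) to 45.4% (TNNT3). ATP2A2 is a SERCA pump also made in most other cells, and MYL2, the most abundant slow gene in media, stood at 33.8%.

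The voltage sensor genes reached the lowest levels that were still above 0. CACNA1S, the pore-forming subunit of the L-type calcium channel of skeletal muscle, had 8.04 FPKM in the media library, 2.46 after MRSA, 0.0260 after PA and 0.00702 after MRSA + PA. CACNG1, the gamma subunit of the same channel, had 31.7, 9.05, 0.0692 and 0.0373 FPKM in the same order. Both genes were below 0.1 FPKM in PA and in MRSA + PA. The log2 differences of CACNG1 were -1.80 after MRSA, -7.55 after PA and -7.85 after MRSA + PA, and those of CACNA1S were -1.67, -6.01 and -6.25. In PA and MRSA + PA these differences depend on the added 0.1 FPKM, which exceeds the levels. In percent of media CACNG1 kept 0.218% in PA and 0.118% in MRSA + PA, and CACNA1S 0.324% and 0.0873%. The ratio of CACNG1 to CACNA1S was 3.94 in media and 3.68 in MRSA. In MRSA these genes kept 28.6% (CACNG1) and 30.6% (CACNA1S) of media, the lowest shares among the 10 genes.

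The release channel was close to its voltage sensor in MRSA, and kept a low but larger share of its media level in PA and MRSA + PA. RYR1, which encodes the ryanodine receptor of skeletal muscle, had 38.3 FPKM in the media library, 13.0 after MRSA, 0.746 after PA and 0.701 after MRSA + PA. Its log2 differences from media were -1.56, -5.50 and -5.58, and it kept 33.8%, 1.95% and 1.83% of media. The ratio of RYR1 to CACNA1S was 4.76 in media and 5.27 in MRSA. It was 28.7 in PA and 99.9 in MRSA + PA, where CACNA1S was below 0.1 FPKM. A second feature of the same name, also on chromosome 1, had 16.3, 6.92, 0.754 and 0.334 FPKM, with log2 differences of -1.22, -4.26 and -5.24. Both features were thus lower in all 3 inoculated libraries. The first feature, of 48489 bp, covers the whole span of EIF3K, a translation factor subunit on the same strand (154 to 192 FPKM), and of MAP4K1, a kinase of blood cells on the opposite strand (16.5 to 29.1 FPKM). The second feature overlaps no other. Whether reads of those genes entered the RYR1 value was not tested.

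The calsequestrins, which bind calcium inside the reticulum, went separate ways. CASQ1, the form of skeletal muscle and mainly of fast fibres, had 71.9 FPKM in the media library, 23.2 after MRSA, 1.10 after PA and 0.925 after MRSA + PA, with log2 differences of -1.62, -5.91 and -6.13. CASQ2, the form of heart and slow fibres, had 3.06 FPKM in the media library, 1.80 after MRSA, 2.06 after PA and 1.42 after MRSA + PA, with log2 differences of -0.73, -0.55 and -1.06. CASQ1 thus stood 23.5 times above CASQ2 in media and 12.9 times in MRSA, and below it at 0.533 times in PA and 0.653 times in MRSA + PA. CASQ2 was the lowest of the 10 genes in media and the second highest in PA and MRSA + PA. Cardiac muscle markers other than TNNT2 were at or near 0. Of the 6 found genes of that list NPPA, an atrial hormone, was listed at 0 in every library, and MYH6, a cardiac myosin, reached 0.0581 FPKM. The list summed to 0.815, 2.09, 5.13 and 3.86 FPKM in the order media, MRSA, PA, MRSA + PA. Of these sums TNNT2 gave 0.558, 1.82, 5.04 and 3.65 FPKM. The 7 smooth muscle markers summed to 445 FPKM in the media library, 269 after MRSA, 409 after PA and 376 after MRSA + PA, and none was at 0. Their part in the CASQ2 level was not tested. An unnamed feature on the opposite strand shares 715 bp with CASQ1 and had 1.19, 0.317, 1.51 and 0.840 FPKM.

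The junction genes included the gene nearest to media and, with 0.1 FPKM added, the gene that differed most between PA and MRSA + PA. Without that addition CACNA1S differed by a larger factor, with 0.0260 FPKM in PA and 0.00702 in MRSA + PA. TRDN encodes triadin, which anchors calsequestrin to the release channel, and had 51.2 FPKM in the media library, 21.0 after MRSA, 0.371 after PA and 1.19 after MRSA + PA. Its log2 differences from media were -1.28, -6.76 and -5.31. JPH1, the junctophilin of skeletal muscle junctions, had 8.08, 3.08, 0.892 and 0.830 FPKM, with log2 differences of -1.36, -3.04 and -3.14. It kept 11.0% of its media level in PA and 10.3% in MRSA + PA, the highest shares after JPH2 and CASQ2. JPH2, the junctophilin best known from heart and also made in skeletal muscle, had 37.0 FPKM in the media library, 35.3 after MRSA, 35.0 after PA and 31.7 after MRSA + PA, with log2 differences of -0.07, -0.08 and -0.22. The feature that carries the name JPH2 spans 90710 bp, which is longer than the rat RefSeq gene (assembly GRCr8), as is also the case for CACNA1S, CACNG1, CASQ1, CASQ2 and SLN. In RefSeq the next gene on that chromosome is Oser1, and no row of the expression table carries that symbol. Whether reads of that neighbour entered the JPH2 value was not tested.

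**Figure D2:**
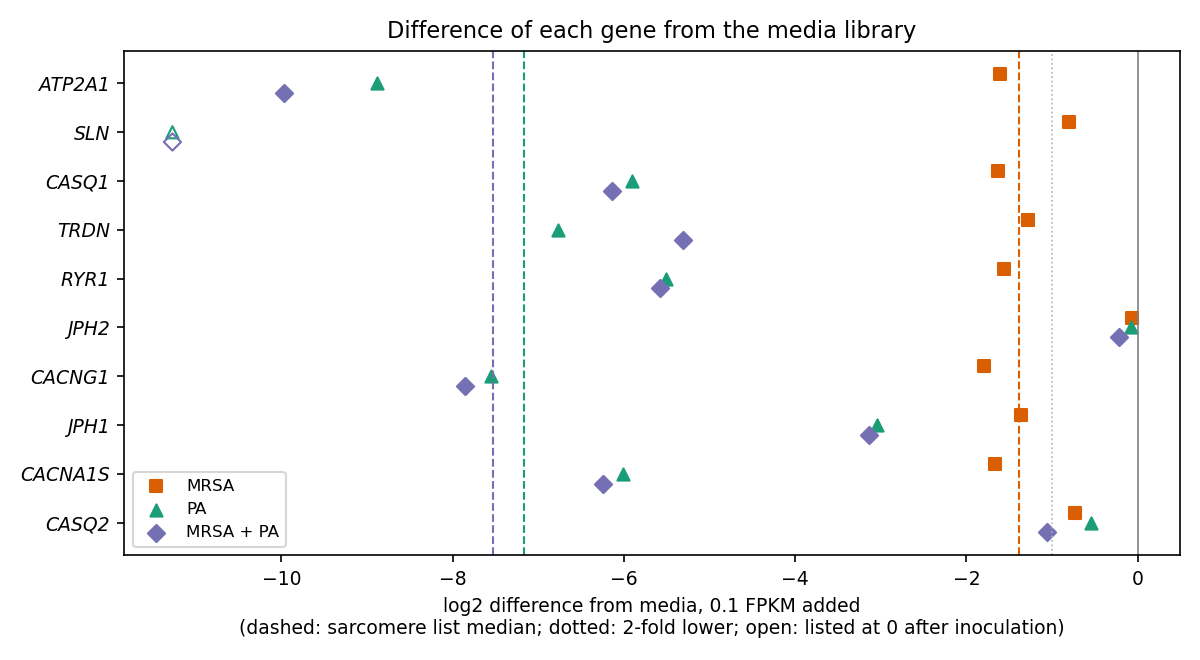
Log2 difference from media of each gene (x axis, 0.1 FPKM added to both libraries) for MRSA, PA and MRSA + PA, 1 point per library, with the sarcomere list medians as dashed lines at -1.39, -7.17 and -7.53. All 10 genes lie left of 0, JPH2 is nearest to it, and the open symbols of SLN rest on the added 0.1 FPKM. In PA and MRSA + PA the points of CACNA1S and CACNG1, with levels below 0.1 FPKM, also depend on it.

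The promoters of 7 of the 10 genes were in the RefSeq table, those of Cacna1s, Ryr1, Trdn, Jph2, Casq1, Casq2 and Atp2a1. Jph1, Sln and Cacng1 were not matched. The E-box CAGCTG, a hexamer that reads the same on both strands and is a known target of the myogenic factors of the MyoD family, was found in the 250 bases before the gene start of 3 of the 7 (Cacna1s, Casq1 and Atp2a1), against 12.0% of all 33469 promoters in the table. A site matching the MEF2 consensus on either strand was found in Casq2 alone, against 2.96% of all promoters. A match shows these letters only, and bound factors were not measured. The 4 sequences with a match are shown so that the motifs can be read in place. Ryr1, Trdn and Jph2 held neither motif in this window. They run 5′ to 3′ on the gene's strand in GRCr8 and end at the base before the gene start, with the motifs in capitals. The E-boxes begin at position -41 in Atp2a1, at -197 and -62 in Cacna1s and at -222 in Casq1, counted from the gene start, and the MEF2 match in Casq2 begins at -149. The windows are chr1:190475411-190475660 on the minus strand (Atp2a1), chr13:50045418-50045667 on the plus strand (Cacna1s), chr13:87212711-87212960 on the minus strand (Casq1) and chr2:192214306-192214555 on the plus strand (Casq2).
Atp2a1: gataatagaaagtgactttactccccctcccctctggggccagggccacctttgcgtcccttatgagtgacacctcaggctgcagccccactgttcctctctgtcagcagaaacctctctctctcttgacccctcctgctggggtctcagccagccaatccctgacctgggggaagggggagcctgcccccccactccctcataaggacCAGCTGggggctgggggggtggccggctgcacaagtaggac
Cacna1s: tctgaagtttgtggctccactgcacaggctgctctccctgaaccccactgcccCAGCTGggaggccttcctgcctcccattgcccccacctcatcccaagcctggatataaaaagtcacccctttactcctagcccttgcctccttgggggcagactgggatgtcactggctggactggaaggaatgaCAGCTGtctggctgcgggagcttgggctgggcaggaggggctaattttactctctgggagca
Casq1: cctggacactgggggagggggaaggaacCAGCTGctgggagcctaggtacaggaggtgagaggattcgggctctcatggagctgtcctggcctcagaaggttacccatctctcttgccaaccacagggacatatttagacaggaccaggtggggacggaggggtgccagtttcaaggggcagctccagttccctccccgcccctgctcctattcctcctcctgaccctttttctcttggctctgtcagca
Casq2: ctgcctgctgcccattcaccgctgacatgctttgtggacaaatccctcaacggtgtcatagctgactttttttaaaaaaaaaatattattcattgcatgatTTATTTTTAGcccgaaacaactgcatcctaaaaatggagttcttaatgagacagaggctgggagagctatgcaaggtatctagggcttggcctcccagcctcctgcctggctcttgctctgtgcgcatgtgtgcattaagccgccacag

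Each inoculum was compared with media, which is the comparison the study was designed for. The average over the 4 libraries was 1 FPKM or more for all 10 genes and for 15944 features in all. In MRSA 7 of the 10 genes were at least 2-fold lower than media (all but SLN, CASQ2 and JPH2), against 4.95% of the 15944 features. In PA 8 were (all but CASQ2 and JPH2), against 7.80%, and in MRSA + PA 9 were (all but JPH2), against 7.83%. No gene of the 10 was 2-fold higher in any of these comparisons. The median log2 difference of the 10 genes was -1.46 after MRSA, -5.96 after PA and -5.86 after MRSA + PA, and that of all features 0.05, 0.07 and 0.05. With SLN left out the medians were -1.56, -5.91 and -5.58. The 3 comparisons share the media library. The size of the differences in PA and MRSA + PA depends on the added value, and with 1 FPKM in place of 0.1 the medians were -4.71 and -4.55. In MRSA none of the 10 was 4-fold lower.

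The genes were then set against other muscle transcripts of the same libraries. In MRSA the sarcomere list had a median log2 difference from media of -1.39, and 7 genes lay within 0.41 of it, between CACNG1 at -0.41 and TRDN at 0.10 relative to that median. SLN, CASQ2 and JPH2 lay above it by 0.59, 0.66 and 1.32. In PA and MRSA + PA the sarcomere medians were -7.17 and -7.53. ATP2A1 was below them by log2 values of -1.72 and -2.44, and CACNG1 was near them at -0.39 and -0.33. RYR1 stood above them by 1.66 and 1.94, CASQ1 by 1.26 and 1.39 and JPH1 by 4.12 and 4.39. The median of the 10 genes lay above the sarcomere median by 1.20 in PA and 1.67 in MRSA + PA. Relative to the summed sarcomere level, which TPM1 and TPM2 dominate there, it lay at -1.47 and -1.35. With 0.1 FPKM added, genes of low media level can fall less far, so these offsets depend in part on media levels. In percent of media the medians were 1.13% and 1.56% for the 10 genes and 0.405% and 0.144% for the sarcomere list. CACNA1S lay below the latter at 0.324% and 0.0873%, yet above in log2 by 1.15 and 1.28. With nothing left out, the 10 genes summed to between 6.04% (MRSA + PA) and 6.98% (MRSA) of the sarcomere sum. The media and PA libraries lay between these, at 6.48% and 6.57%. A second version left JPH2 out of the genes and TPM1 and TPM2 out of the list, choices made after the values were seen. The share was then 6.99% (media), 7.37% (MRSA), 16.9% (PA) and 19.1% (MRSA + PA). CASQ2 was kept in this version, with 2.06 of the 6.03 FPKM left after PA and 1.42 of the 5.42 FPKM left after MRSA + PA. ATP2A1 and SLN held 45.4% and 27.2% of the summed level of the 10 genes in media, and 35.1% and 36.7% in MRSA. JPH2 held 4.07% in the media library, 9.13% after MRSA, 85.3% after PA and 85.4% after MRSA + PA.

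**Figure D3:**
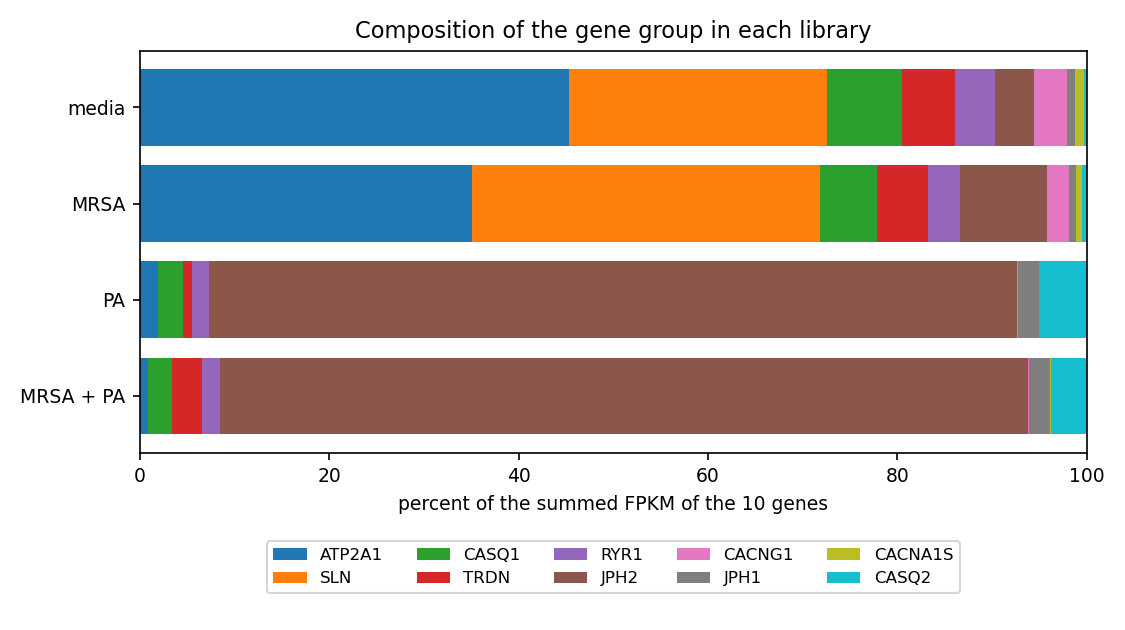
Share of each gene in the summed FPKM of the 10 genes (x axis, percent), 1 bar per library. ATP2A1 and SLN fill most of the bars of media and MRSA, and JPH2 fills 85.3% in PA and 85.4% in MRSA + PA.

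Among the inoculated libraries, MRSA stood apart in FPKM from both libraries that had received PA. The paper's real-time PCR covered none of the 10 genes, and it did not show this split for other muscle genes. It gave larger falls after MRSA than after PA for ACTA1, MYH1 and MYOM2 of the sarcomere list and for HRC, a release channel partner. The same held for GPD1 and EEF1A2, named below. The paper's own sequencing values for these genes did show the split, and the paper describes the 2 methods as in complete agreement. Set directly against MRSA, 8 of the 10 genes were at least 2-fold lower in PA, against 5.03% of all features, and 8 in MRSA + PA, against 5.73%. The exceptions were JPH2 and CASQ2 in both cases. The medians of the 10 genes were -4.31 in PA and -4.27 in MRSA + PA, and those of all features -0.0030 and -0.0085. Between MRSA + PA and PA the median was -0.18. TRDN was the only gene whose level in MRSA + PA exceeded that in PA at least 2-fold, with a log2 difference of 1.45, against 2.50% of all features. ATP2A1 was the only gene at least 2-fold lower, with -1.09, against 4.27% of all features. Both differences lie between values of 1.19 FPKM or less. With 1 FPKM added no gene was 2-fold lower, and with 0.01 FPKM added 2 were.

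Partner genes of the same machinery were described in the same way. Of 29 partners 28 averaged 1 FPKM or more, and 14 of these were below media by 2-fold or more after MRSA, 18 after PA and 17 after MRSA + PA, and none was higher. Among all features the shares lower were those given above, and at least 2-fold higher were 1350 features (8.47%) after MRSA, 1602 of the 15944 after PA and 7.78% after MRSA + PA. The partners' median log2 differences were -1.02, -2.67 and -2.43. PVALB, parvalbumin, the soluble calcium buffer of fast fibres, had 398 FPKM in the media library, 119 after MRSA, 0.382 after PA and 0.201 after MRSA + PA. STAC3, the adaptor that carries the channel CACNA1S to the membrane, had 22.1, 8.99, 0.0487 and 0 FPKM, and SRL, sarcalumenin of the reticulum lumen, had 24.5, 7.48, 0.0476 and 0.0491 FPKM. BIN1, which shapes the transverse tubules and is also made elsewhere, had 63.9, 39.8, 22.4 and 23.3 FPKM. FKBP1A, an immunophilin that binds the release channel and is made in most cells, had 92.5, 103, 99.8 and 114 FPKM. The 10 partners not 2-fold lower in PA were ASPH, FKBP1A, FKBP1B, HOMER1, DYSF, MTM1, TMEM38B, SPEG, STIM1 and ORAI1.

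Relatives of the 10 genes, some of them also made in skeletal muscle, and general calcium-binding proteins of the reticulum were mostly close to media. Of 26 such genes 18 averaged 1 FPKM or more, and 6 of these were the general reticulum proteins. Among the 18, 1 was at least 2-fold lower after MRSA, 2 after PA and 2 after MRSA + PA. The gene lower after MRSA was PLN, and those lower after PA and after MRSA + PA were PLN and CACNG6. Only 1 was higher, after PA. The median log2 differences of the 18 were 0.01, 0.11 and -0.05. Those of the 6 reticulum proteins were -0.01, 0.002 and 0.04. Medians were 0.24, 0.51 and 0.27 for 3 release channels, and -0.63, -0.54 and -0.55 for 3 calcium channel subunits. ATP2A2, the SERCA pump of slow fibres, heart and most other cells, had 84.8 FPKM in the media library, 79.2 after MRSA, 87.9 after PA and 73.7 after MRSA + PA. ATP2A1 thus stood 4.86 times above ATP2A2 in media, 1.71 times in MRSA, and at 0.00879 and 0.00422 times its level in PA and MRSA + PA. PLN, phospholamban, the SERCA inhibitor of heart, slow and smooth muscle, had 24.8, 10.1, 5.79 and 8.06 FPKM. JPH3 and JPH4, junctophilins of the nervous system, averaged under 1 FPKM and so are not in these counts. JPH3 had 1.94, 0.362, 0.195 and 0.228 FPKM and JPH4 had 0.895, 0.167, 0.138 and 0.0699 FPKM. RYR2, also left out of the counts, went the other way with 0.0144, 0.213, 0.248 and 0.155 FPKM. CACNG6, a further channel gamma subunit, had 5.96, 3.07, 0.424 and 0.570 FPKM. ATP2B4, a calcium pump of the plasma membrane, had 6.64, 9.09, 14.6 and 9.19 FPKM. The general calcium-binding and folding proteins of the reticulum stayed near media, with CALR at 302 to 362 FPKM, HSPA5 at 197 to 231, CALU at 155 to 198 and CANX at 131 to 179 FPKM.

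**Figure D4:**
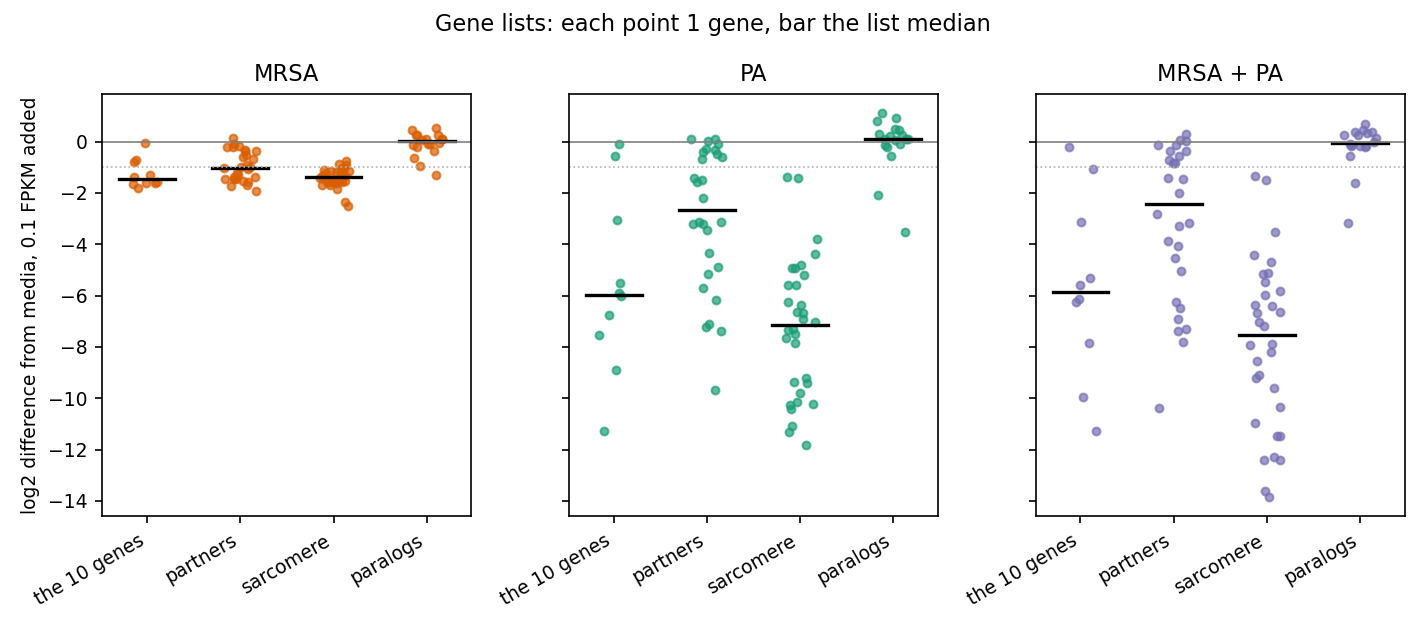
Log2 difference from media (y axis, 0.1 FPKM added) in MRSA, PA and MRSA + PA for the 10 genes, 28 partners, 32 sarcomere list genes and 18 genes of the relative list (paralogs) averaging 1 FPKM or more, 1 point per gene, with bars at the medians. The relative list includes 6 general calcium-binding proteins of the reticulum. The medians of the 10 genes are -1.46, -5.96 and -5.86, and those of the relative list are near 0.

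Outside these lists, the 8 named features averaging 5 FPKM or more that lay nearest to the medians of the 10 genes over the 3 log2 differences were GPD1, ANK1, FITM1, TRIM63, APOBEC2, RTN2, ANGPTL7 and EEF1A2, at Euclidean distances of 0.30 to 1.19. GPD1, a glycerol phosphate dehydrogenase, had 25.1, 8.26, 0.377 and 0.299 FPKM, in the order media, MRSA, PA, MRSA + PA. The table places that feature on chromosome X and RefSeq places Gpd1 on chromosome 7. ANK1, an ankyrin with a short muscle form that ties the reticulum to the sarcomere, had 27.3, 11.9, 0.408 and 0.274 FPKM. TRIM63, a ubiquitin ligase of muscle, had 15.4, 4.41, 0.222 and 0.231 FPKM.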

How the data were processed

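RNA from the scraped middle ear lining of rats given medium, MRSA, PA or MRSA + PA was sequenced by the authors, 1 library per condition. The FPKM values were made by the authors from filtered reads mapped with STAR 2.3.0e and quantified with Cufflinks 2.1.1, as listed by the submitters. The methods name a human reference, but the features lie on rat chromosomes. The genome build is not given in the sources used here, so only chromosomes are printed for features. The 3 comparison tables, which hold the authors' log2 fold changes, p-values and q-values, were not used. The paper reports read totals for its samples. FPKM holds no counts for single features, and the counting error of a value was not estimated.

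For each pair of libraries the log2 ratio was taken after 0.1 FPKM was added to both, and 2-fold differences were counted among features averaging 1 FPKM or more over the 4 libraries. With 1 library per condition nothing was tested. The 10 genes and the partner, relative, sarcomere and marker lists were chosen from textbook knowledge with earlier results of these data known. In the partner and relative lists the 4 most abundant genes on average and the 3 furthest from media were named, and outside the lists the 8 features averaging 5 FPKM or more nearest to the medians of the 10 genes. A gene that this rule selects is not reported here. Genes outside this rule, such as ATP2A2, the 10 partners not lower in PA and TNNT2, were named after their values were seen. Alternatives were 1 or 0.01 FPKM added, 1.5-fold or 4-fold, median-of-ratios scaling, equal FPKM sums over features of at least 300 bp, genes averaging 5 FPKM or more, and FPKM summed over features of a symbol. The arithmetic was tested on simulated libraries of features averaging 5 FPKM or more, with 4-fold and 8-fold changes. That simulation did not reach levels near 0 FPKM, where several of the 10 genes lie in PA and MRSA + PA. Promoters were read from RefSeq (GRCr8). Computations used Python 3.11.15, numpy 2.4.6, pandas 2.3.3 and matplotlib 3.10.9.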

Additional observations from a re-analysis of the deposited data

How the results depend on the processing

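No paired analysis was possible because each condition has 1 library, and for the same reason no library could be left out. Of the alternative values, 68 stayed close to the main value (within 1.5-fold), 10 moved further and 3 changed sign. Counts of genes 2-fold lower than media moved past that limit in MRSA alone, from 7 to 0 at 4-fold. Median log2 differences from media were -4.71 in PA and -4.55 in MRSA + PA with 1 FPKM added, and -6.76 in PA among genes averaging 5 FPKM or more. The medians against MRSA were -3.12 in PA and -3.16 in MRSA + PA with 1 FPKM added, and -5.09 in PA with 0.01 FPKM. Of MRSA + PA against PA, the count of lower genes was 0 with 1 FPKM and 2 with 0.01 FPKM in place of 1. The median of the 10 genes relative to the sarcomere median changed sign in 3 settings. It was -0.07 in MRSA and 0.026 with 1 FPKM added. It was 1.20 in PA and 1.67 in MRSA + PA, and -1.47 and -1.35 against the summed sarcomere level, which TPM1 and TPM2 dominate in those libraries. In MRSA + PA it was 0.74 with 1 FPKM added. Leaving out JPH2, or taking the second RYR1 feature, alternatives added after the data were seen, kept every count and gave medians of -1.56, -6.01 and -6.13 (JPH2 left out) and of -1.32, -5.96 and -5.72 (second feature) for the inocula in the order used above. Values under about 1 FPKM have no known precision, which limits every comparison between PA and MRSA + PA.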

Other observations

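TNNT2, the troponin T of heart and of developing skeletal muscle, was higher in the inoculated libraries, unlike the other troponin T genes. It had 0.558 FPKM in the media library, 1.82 after MRSA, 5.04 after PA and 3.65 after MRSA + PA, while TNNT3, the fast muscle form, had 843, 383, 6.97 and 3.50 FPKM and TNNT1, the slow form, 52.2, 25.8, 1.31 and 1.35 FPKM. Other cardiac markers were at or near 0 in every library. ACTG2, an actin of smooth muscle, was likewise higher in PA, with 1.64, 1.78, 9.87 and 4.96 FPKM, while LMOD1, a further smooth muscle protein, had 13.2, 5.63, 3.70 and 4.57 FPKM. Among the release channels of other tissues RYR2, the heart form, reached at most 0.248 FPKM, in PA, and RYR3 at most 0.314 FPKM, in media. These genes were named after their values were seen, and no explanation was tested.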
